A study of Neurospora crassa with 4 samples.

Results

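The RNA silencing genes of *Neurospora crassa* were followed as 8 genes chosen by name: *qde-1* (NCU07534), *qde-2* (NCU04730), *qde-3* (NCU08598), *dcl-1* (NCU08270), *dcl-2* (NCU06766), *qip* (NCU00076), *sms-2* (NCU09434) and *sad-1* (NCU02178). Of these 8 genes, 7 were among the 7793 genes measured, and *sad-1* was not analysed here. The assay was 3′ End Sequencing, in which each read marks the 3′ end of 1 polyadenylated transcript, in 2 cultures of a ΔCFIm strain and 2 cultures of a control strain. The ΔCFIm strain (strain 2029) carries hphR replacements of both *cpsf5* (NCU09014) and *cpsf6* (NCU02152), the subunits of a complex that helps to place the poly(A) tail, while the control strain (strain 1785-1, MAT A) keeps both genes. Both strains carry a luciferase reporter under the *frq* clock box, with barR, at *csr-1*. Mycelia and conidia were harvested together from cellophane-covered plates of medium with 0.25% glucose and 0.17% arginine (w/v) after 72 hours at 25°C in constant light. Each genotype was represented by a single strain, and the duplicates were separate cultures of that strain. The p-values below therefore set the difference between 2 strains against the spread between cultures within the strains. Strain and genotype cannot be told apart.

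Quelling is the RNA interference pathway of vegetative hyphae in *Neurospora*. Repeated DNA gives rise to aberrant RNA, the RNA-dependent RNA polymerase QDE-1 copies it into double-stranded RNA with help from the RecQ-type helicase QDE-3, the Dicer enzymes DCL-1 and DCL-2 cut it into small RNAs, and the Argonaute protein QDE-2 uses these to find matching transcripts, with the exonuclease QIP removing the passenger strand. Meiotic silencing by unpaired DNA is a related pathway of the sexual phase, which acts on genes without a partner on the homologous chromosome. It has an RNA-dependent RNA polymerase (SAD-1) and an Argonaute (SMS-2) of its own and shares DCL-1 and QIP with quelling. The genes were accordingly taken as quelling genes (*qde-1*, *qde-2*, *qde-3*, *dcl-2*), genes of both pathways (*dcl-1*, *qip*) and a meiotic silencing gene (*sms-2*).

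The libraries held 5572762 to 6053869 reads on genes, and the deposited values are these reads scaled to equal library totals, called normalized counts here. Both deleted genes were lower in ΔCFIm, as the labels say. The normalized counts of *cpsf5* were 2.96 and 0 in ΔCFIm, against 214 and 192 in control. *cpsf6* was lower but not absent, with 25.7 and 26.0 in ΔCFIm, against 141 and 160 in control. The source of the remaining *cpsf6* reads was not tested. *csr-1* was listed at 0 in all 4 libraries, and the mating-type gene *matA-1* had 0 normalized counts in both ΔCFIm libraries, against 152 and 160 in control, so the strains differed there too. Conidial genes were abundant in all libraries, including *eas*, which encodes the hydrophobin of the conidial surface, with 545275 to 611475 normalized counts in ΔCFIm and 562943 to 584252 in control. The actin gene *act* had 7401 and 5964 in ΔCFIm, against 6158 and 6173 in control. Such cultures hold several cell types, and fewer cells of a type cannot be told apart from less RNA per cell.

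All genes of the quelling machinery that could be analysed had reads in each library, whereas the meiotic Argonaute gene *sms-2* was near the detection limit (plot of levels by library). Since 1 transcript gives 1 read, levels were compared between genes as normalized counts without division by gene length, although reads that end outside an annotated gene are missed to an unknown extent for each gene. Averaged over the 4 libraries, the order was *qde-2* (375 normalized counts), *dcl-1* (315), *qip* (269), *qde-3* (139), *qde-1* (91.1), *dcl-2* (18.0) and *sms-2* (0.996). The median over all 7793 genes was 204. Over the 4 libraries the range of *dcl-1* overlapped with that of *qde-2* and with that of *qip*, so *dcl-1* was not separated from either, whereas *qde-2* lay above *qip* in every library without overlap. The range of *qip* lay above that of *qde-3*. The ranges of *qde-3* and *qde-1* overlapped, but *qde-3* was the higher of the pair in 4 of 4 libraries. *dcl-2* lay below *qde-1* and above *sms-2* without overlap.

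**Figure D1:**
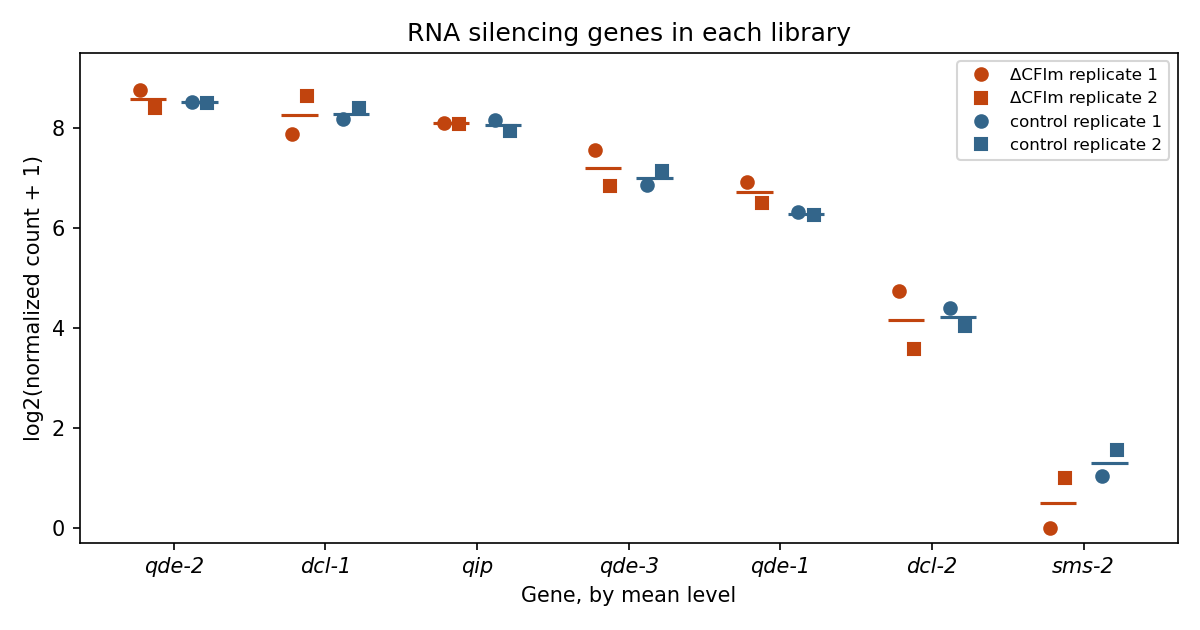
Levels of the 7 RNA silencing genes as log2(normalized count + 1), with 1 point per library (circles for replicate 1, squares for replicate 2), ΔCFIm in orange, control in blue, and short lines at the genotype means. The *qde-1* points of ΔCFIm lie above both control points, those of 5 other genes overlap between genotypes, and *sms-2* has 0 to 2 reads in every library.

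No silencing gene passed the threshold for a difference between ΔCFIm and control. Of the 6 genes with enough reads to test, 0 were called by limma at an adjusted p of 0.05, where 8.001% of the 6949 genes tested were called (556 genes, 321 higher and 235 lower in ΔCFIm). At an unadjusted p under 0.05 the counts were likewise 0 of the 6 silencing genes and 22.5% of all tested genes, and edgeR's quasi-likelihood test and DESeq2 on the recovered reads also called 0 of the 6. The median log2 fold change, ΔCFIm minus control, was 0.055 over the 6 silencing genes and -0.0088 over all tested genes, and the median absolute log2 fold change was 0.065 over the silencing genes and 0.24 over all tested genes. For 5 of the 6 genes the log2 fold change was smaller than its standard error. The 95% intervals of the 6 genes all stayed under a 2-fold rise, and 5 of them, all but that of *dcl-2*, also excluded a 2-fold fall (plot of genotype differences). With 2 libraries on each side, 0.333 is the smallest two-sided p of an exact permutation test, which could therefore call no gene.

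**Figure D2:**
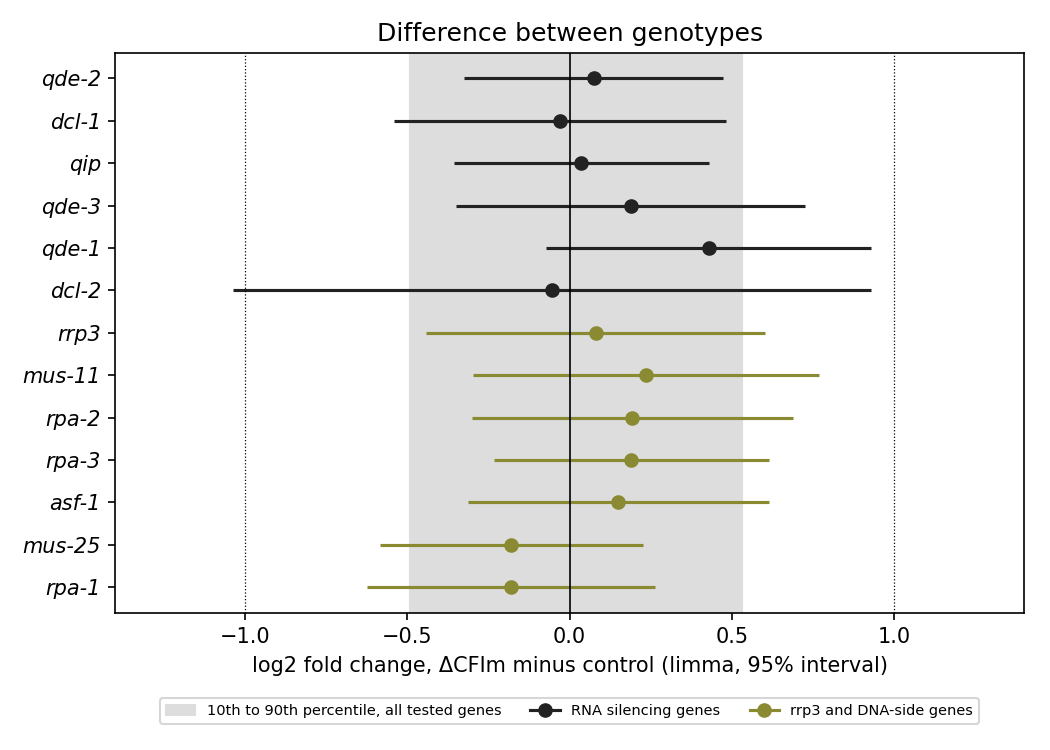
Log2 fold change, ΔCFIm minus control, with its 95% interval from limma, for the 6 tested silencing genes (black) and for *rrp3* and 6 genes of the DNA side of quelling (olive). The grey band spans the 10th to 90th percentile of all 6949 tested genes (-0.49 to 0.53), the dotted lines mark 2-fold changes, and every interval shown includes 0.

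The RNA-dependent RNA polymerase gene *qde-1* (linkage group III, 4461937 to 4467476 in NC12) had the largest difference among the silencing genes. ΔCFIm replicate 1 had 121 and ΔCFIm replicate 2 had 89.9 normalized counts, against 78.8 and 75.4 in control. Both ΔCFIm libraries were above both control libraries. This was so for 1 of the 6 tested silencing genes, and the genotypes did not overlap for 52.4% of all tested genes. The means were 105 ± 21.7 in ΔCFIm and 77.1 ± 2.38 in control (SD, N = 2 each). The log2 fold change was 0.43 (SE 0.23), a 1.35-fold difference with a 95% interval of 0.951 to 1.91, and it did not pass limma's test (adjusted p = 0.302, 0.0988 to 0.720 over the alternatives). When single libraries were left out, it stayed between 0.22 (without ΔCFIm replicate 1) and 0.64 (without ΔCFIm replicate 2). *qde-1* lies 219 kb from the deleted *cpsf5* on the same linkage group. Strain differences at linked sites and the deletions themselves cannot be told apart in these samples. Of all tested genes, those whose values varied most like *qde-1* over the 4 libraries were NCU01276 and NCU00122, at Euclidean distances of 0.028 and 0.040 on the log2 scale after each gene's own mean was removed. NCU01276 had 114 and 86.9 normalized counts in ΔCFIm, against 74.6 and 71.5 in control.

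A further RNA-dependent RNA polymerase gene, *rrp3* (NCU08435), had 221 and 133 normalized counts in ΔCFIm, against 175 and 150 in control. The ΔCFIm libraries lay on both sides of the control libraries (log2 fold change 0.081, SE 0.24, limma adjusted p = 0.883). Its mean level was above that of *qde-1* in both genotypes (177 and 105 normalized counts in ΔCFIm, 163 and 77.1 in control). The polymerase gene of meiotic silencing, *sad-1* (linkage group I, 969499 to 974473), lies 93.3 kb from the deleted *cpsf6*.

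For the helicase gene *qde-3* (linkage group I, 9534663 to 9542052), normalized counts were 187 and 113 in ΔCFIm, against 116 and 140 in control. ΔCFIm replicate 1 was the highest of the 4 libraries and ΔCFIm replicate 2 the lowest. The means were 150 ± 52.3 in ΔCFIm and 128 ± 17.4 in control (SD, N = 2 each), and the log2 fold change of 0.19 (SE 0.25) did not pass (limma adjusted p = 0.713). Its sign depended on ΔCFIm replicate 1, without which it was -0.17, and it reached 0.55 without ΔCFIm replicate 2.

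Of the Dicer genes, *dcl-1* was at a far higher level than *dcl-2* in every library. *dcl-1* (linkage group IV, 2592691 to 2598157) had 233 and 400 normalized counts in ΔCFIm, against 289 and 336 in control. The ΔCFIm libraries were the lowest and the highest, the means were 317 ± 118 in ΔCFIm and 313 ± 33.7 in control, with a log2 fold change of -0.028 (SE 0.24, limma adjusted p = 0.960). The direction thus differed between the means of the normalized counts, slightly higher in ΔCFIm, and the means on the log2 scale, slightly lower in ΔCFIm. It was 0.36 without ΔCFIm replicate 1, 0.081 without control replicate 2 and -0.42 without ΔCFIm replicate 2. The annotated ends of *dcl-1* and *pdx-4* (NCU08269) overlap by 37 bp, and reads there may have been lost or assigned to either gene, since the strand setting of the counting is not given in the sources used here. *pdx-4* was looked up after its values were seen. It had 321 and 385 normalized counts in ΔCFIm, against 183 and 202 in control, and was higher in ΔCFIm with a log2 fold change of 0.87 (limma adjusted p = 0.0120).

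*dcl-2* (linkage group II, 2009452 to 2015181) had 25.7 and 10.98 normalized counts in ΔCFIm, against 19.95 and 15.5 in control. These rest on only 26 and 11 reads in ΔCFIm and 19 and 16 reads in control. For comparison, the deleted *cpsf6* kept 26 reads in each ΔCFIm library. The annotation of *dcl-2* lies 45 bp from NCU06767, so reads at its end may have been lost or shared. The log2 fold change of *dcl-2* was -0.055 (SE 0.45, limma adjusted p = 0.960), and 0.52 without ΔCFIm replicate 2 and 0.12 without control replicate 1. Its 95% interval ran from 0.487-fold to 1.90-fold, the widest among the silencing genes. Transcripts of *dcl-2* and *qde-2* are known to be induced by double-stranded RNA in *Neurospora*. Neither passed the threshold here, but double-stranded RNA was not measured and such an induction was not tested. Of the reads on both Dicer genes, *dcl-2* took 9.92% in ΔCFIm replicate 1 (95% Clopper-Pearson interval 6.59 to 14.2%) and 2.67% in ΔCFIm replicate 2 (1.34 to 4.73%). In control the shares were 6.46% in replicate 1 (3.94 to 9.91%) and 4.40% in replicate 2 (2.53 to 7.04%). The intervals cover counting error only. The 2 ΔCFIm intervals did not meet, while those of the control libraries did, and the control shares lay between those of ΔCFIm.

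The Argonaute gene *qde-2* (linkage group VI, 574929 to 579388) was the most abundant silencing gene on average, with 433 and 339 normalized counts in ΔCFIm, against 364 and 363 in control. The control libraries lay between those of ΔCFIm. The means were 386 ± 66.6 in ΔCFIm and 363 ± 1.34 in control (SD, N = 2 each), with a log2 fold change of 0.074 (SE 0.18, limma adjusted p = 0.856) and a 95% interval of 0.798-fold to 1.39-fold. Without ΔCFIm replicate 1 the log2 fold change was -0.10. The counts sum over all poly(A) sites assigned to a gene, and the positions of these sites were not analysed here.

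*qip* (linkage group III, 2528710 to 2531908), the gene for the exonuclease that works with QDE-2, was the steadiest silencing gene in ΔCFIm, with 273 and 271 normalized counts, against 286 and 246 in control. The log2 fold change of *qip* was 0.036 (SE 0.18, limma adjusted p = 0.932), with a 95% interval of 0.781-fold to 1.35-fold. It was -0.072 without control replicate 2. The annotation of *qip* overlaps that of *tim14* by 42 bp and ends 21 bp from *mus-52*, so reads at its ends may have been lost or shared. *tim14* had 837 and 997 normalized counts in ΔCFIm, against 1166 and 926 in control, and did not pass (log2 fold change -0.19, limma adjusted p = 0.604).

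*sms-2* (linkage group VII, 166762 to 170125), the meiotic Argonaute gene, had 0 and 1 reads in ΔCFIm replicates 1 and 2, against 1 and 2 reads in control replicates 1 and 2. All 4 values were at or under a floor of 3 reads per library (2.90 to 3.15 normalized counts). The mean of 0.996 was under the 10 normalized counts required, so *sms-2* was left out of the main test and no fold change is given. Over the 4 libraries, *sms-2* took 4 of the 1503 reads on both Argonaute genes, or 0.266% (95% Clopper-Pearson interval 0.0726 to 0.680%), and *qde-2* took the other 1499. Within single libraries the share was 0% of 438 reads in ΔCFIm replicate 1, with an upper bound of 0.839%, and 0.294% in ΔCFIm replicate 2 (0.00745 to 1.63%). It was 0.287% in control replicate 1 (0.00727 to 1.59%) and 0.531% in control replicate 2 (0.0643 to 1.90%). These intervals overlapped in all libraries, and no difference between the genotypes was detectable at this depth.

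Summed by pathway, the 4 quelling genes had 766 and 552 normalized counts in ΔCFIm, against 579 and 594 in control. The 2 genes of both pathways had 506 and 671 in ΔCFIm, against 574 and 582 in control, while the meiotic gene had 0 and 0.999 in ΔCFIm, against 1.05 and 1.93 in control. Quelling genes and genes of both pathways were thus at nearly equal sums in each control library, whereas the quelling genes were higher in ΔCFIm replicate 1 and lower in ΔCFIm replicate 2. Together the 7 genes stood at 217 and 209 CPM (recovered reads scaled to a common total) in ΔCFIm and 197 and 201 CPM in control.

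**Figure D3:**
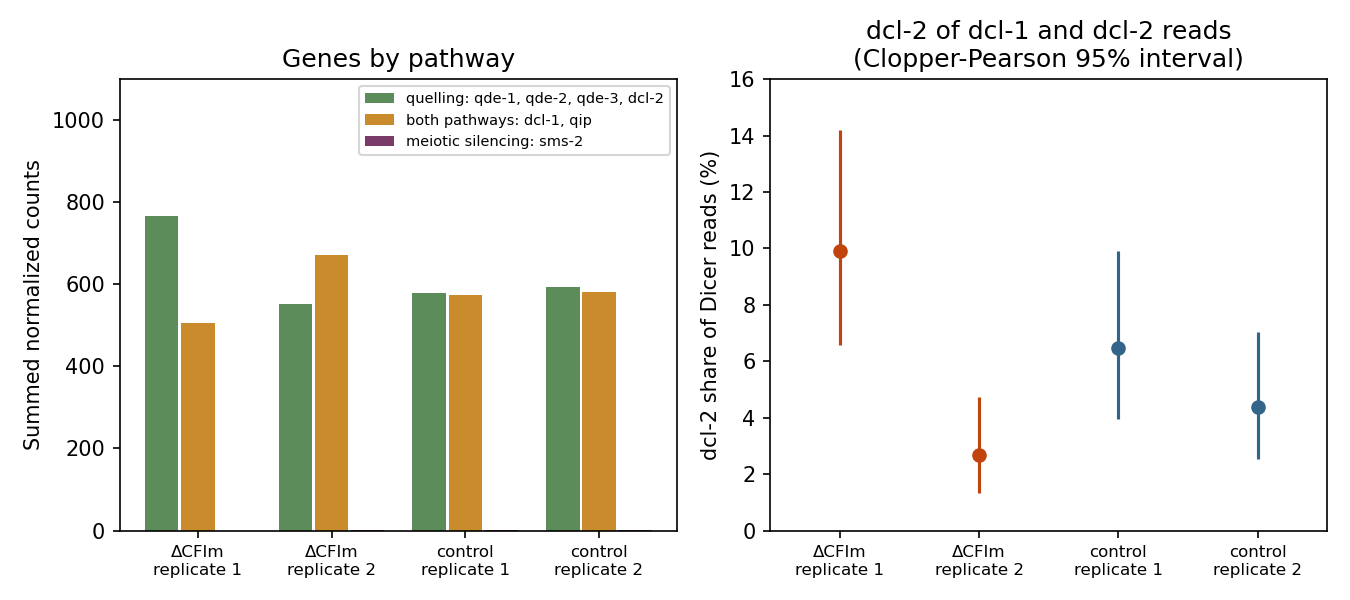
Left, summed normalized counts per library of the 4 quelling genes (green), the 2 genes of both pathways (amber) and *sms-2* (purple, too low to be visible). Right, percent of the reads on *dcl-1* and *dcl-2* that fell on *dcl-2*, with 95% Clopper-Pearson intervals. The control libraries lie between the ΔCFIm libraries for the green and amber sums and for the *dcl-2* share.

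The duplicate cultures differed more in ΔCFIm than in control for most of these genes (plot of replicate ratios). The ratio of ΔCFIm replicate 1 to replicate 2 was 1.65 for *qde-3* (exact 95% counting interval 1.30 to 2.11), 1.28 for *qde-2* (1.11 to 1.48) and 1.34 for *qde-1* (1.01 to 1.78). It was 2.34 for *dcl-2* (1.12 to 5.24) and, in the opposite direction, 0.582 for *dcl-1* (0.494 to 0.686). The interval excluded 1 for 5 of the 6 tested genes in ΔCFIm, all but *qip* (1.01, 0.849 to 1.20), against 44.6% of all tested genes, and for 0 of the 6 genes in control, against 32.05% of all tested genes (the difference between genotypes was not tested), where the ratios ran from 0.824 for *qde-3* to 1.29 for *dcl-2*. Over all tested genes the median absolute log2 difference between duplicates was 0.24 in ΔCFIm and 0.18 in control, and 62.2% of genes in ΔCFIm and 50.4% in control were higher in replicate 1. The ratios rest on scaling to library totals. Median-of-ratios size factors of the scaled values were 1.033 and 0.974 in ΔCFIm replicates 1 and 2, against 1.002 and 1.004 in control. The ratios above do not use these factors. With them the *qde-1* interval, with its lower bound of 1.01, would include 1, and *qde-1* would leave the 5 genes.

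**Figure D4:**
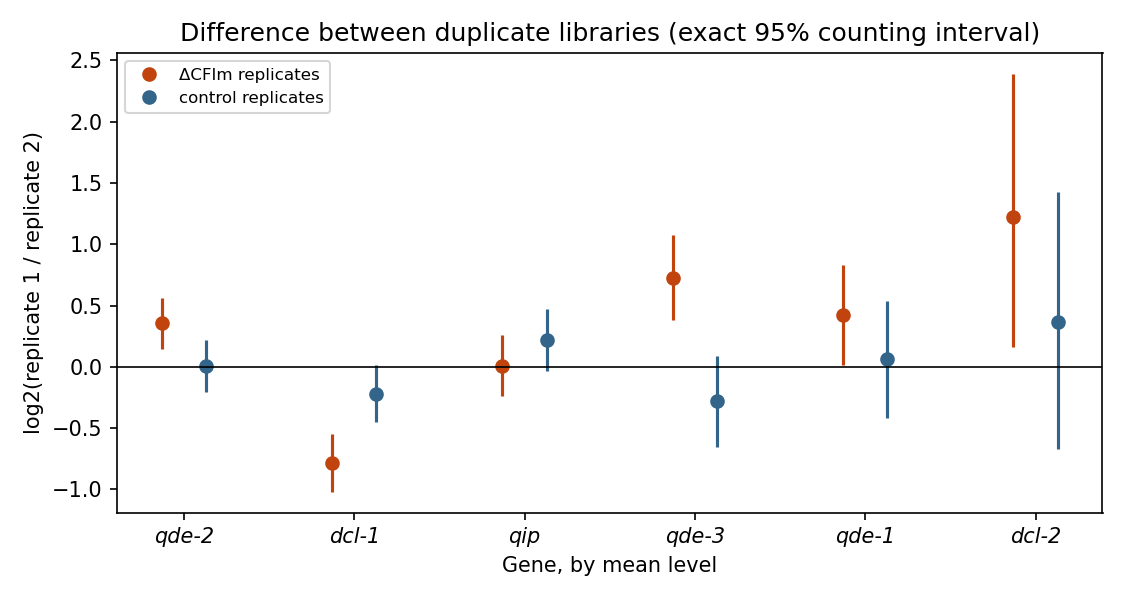
Log2 ratio of replicate 1 to replicate 2 within each genotype (ΔCFIm in orange, control in blue) for the 6 tested silencing genes, with exact 95% counting intervals. The ΔCFIm intervals of *qde-2*, *qde-3*, *qde-1* and *dcl-2* lie above 0 and that of *dcl-1* below 0, while each control interval includes 0. Ratios are of values scaled to library totals.

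Developmental markers varied in both directions between the ΔCFIm cultures. The conidial list, for conidia and aerial hyphae, held 8 genes, among them *al-1*, *al-2* and *al-3*, and 7 were measured. Their summed level was 749535 and 763472 normalized counts in ΔCFIm, against 768054 and 775939 in control, most of it from *eas*, and none was at the floor. Of these 7 genes, 3 were higher and 4 lower in ΔCFIm replicate 1 than in ΔCFIm replicate 2, among the lower ones *con-10*, with 52848 and 103957 normalized counts in ΔCFIm, against 89366 and 69319 in control. Over the 6 sexual-phase genes measured of 8 listed, the sum was 5167 and 14556 in ΔCFIm, against 9598 and 15425 in control, with 0 to 2 genes at or under the floor in a library. Most of it came from *poi-2*, which was named after its values were seen and had 4757 and 14151 normalized counts in ΔCFIm, against 9159 and 14924 in control. Of these 6 genes, 2 were higher and 4 lower in ΔCFIm replicate 1 than in ΔCFIm replicate 2. None passed limma's threshold between genotypes, where 8.001% of all tested genes were called. On the conidial list this was 0 of 7, with 4 positive and 3 negative log2 fold changes. On the sexual-phase list it was 0 of 4 tested, all 4 negative. The genotypes did not overlap for 2 of the 7 and 2 of the 4, against 52.4% of all tested genes. At an unadjusted limma p under 0.05 were 2 of the 7 and 0 of the 4, against 22.5% of all tested genes. *con-8* had 34801 and 57359 normalized counts in ΔCFIm, against 64873 and 75140 in control (log2 fold change -0.64). The other was *al-1* (log2 fold change 0.42). Levels differed widely among the 6 measured sexual-phase genes, with *poi-2* the highest and *spo11* and *per-1* the lowest. *spo11*, the meiotic recombination endonuclease, had 0.988 and 4.99 normalized counts in ΔCFIm, against 7.35 and 2.90 in control. The perithecial pigment gene *per-1* had 7.90 and 15.0 in ΔCFIm, against 2.10 and 1.93 in control. The other sexual-phase genes, *asd-1*, *asd-4* and *fsd-1*, were at 82.9 to 207 normalized counts in ΔCFIm and 102 to 232 in control. The part of these markers in the levels of the silencing genes was not tested.

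Quelling also depends on proteins that act on DNA, among them replication protein A and the factors of homologous recombination. Of 6 such genes, all tested, 0 passed limma's threshold in either direction, with log2 fold changes between -0.18 and 0.24 and adjusted p between 0.622 and 0.735. The largest were *mus-11*, a recombination repair gene, with 71.1 and 86.9 normalized counts in ΔCFIm, against 58.8 and 75.4 in control (log2 fold change 0.24, SE 0.25), and *rpa-2*, a gene of replication protein A, with 145 and 101 in ΔCFIm, against 106 and 105 in control (log2 fold change 0.19, SE 0.23). The genotypes overlapped for all 6 genes, while they did not for 52.4% of all tested genes, and 8.001% of all tested genes passed the threshold. The further meiotic silencing genes *sad-2* and *sad-3* were not analysed here, and the other such genes listed were not matched by symbol. Meiotic silencing is thus represented by *sms-2* and the shared genes *dcl-1* and *qip* alone.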

How the data were processed

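Total RNA from 2 ΔCFIm and 2 control cultures was made into stranded QuantSeq 3′ REV libraries and sequenced as 75 bp single-end reads. The authors aligned the reads to the NC12 genome with STAR, counted them per gene with HTSeq, and normalized by library size. The deposited signal is therefore a normalized count per gene, without pooling of replicates. The normalization leaves ratios within a library untouched. Divided by what 1 read is worth in its library, 100% of the deposited values came out whole (tolerance 0.01 reads), which gave back the reads. Symbols and positions come from RefSeq's NC12 gene table, matched by locus tag for 7792 of the 7793 genes.

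Genotypes were compared with limma 3.58.1 in R 4.3.3 (trended eBayes) on log2(normalized count + 1), which understates changes of low genes. The 6949 genes tested averaged 10 or more normalized counts. Benjamini-Hochberg adjustment ran over all tested genes. The 95% intervals of fold changes come from this fit, and intervals of ratios and shares of reads are exact (scipy 1.17.1). They cover counting error only, since PCR copies are not independent molecules. edgeR 4.0.16 and DESeq2 1.42.0 on recovered reads were alternatives, beside pseudocounts, filters, scalings, the replicate block and leaving out each library. The tests were also run on simulated counts with changes of at least 2-fold or with none. Both genotypes had the same simulated spread, so the simulation does not bear on smaller changes or on the wider spread of ΔCFIm duplicates. The members and lists were chosen with earlier results of these data known. Genes named in full are the 8 members. Of the other meiotic silencing genes and the DNA-side list, genes past the threshold and the 2 with the largest change were named, with the deleted, reporter and mating-type loci, *eas*, *con-10* and *act* as checks, and the 2 genes varying most like *qde-1*. The sexual-phase markers, *con-8* and *al-1* were named after their values were seen. For recQ-2 and rtt109 no gene was matched by symbol, and 1 other gene of the DNA-side list is not reported here.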

Additional observations from a re-analysis of the deposited data

How the results depend on the processing

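None of the 6 tested silencing genes and none of the 6 DNA-side genes passed the threshold under any alternative that tested them. *dcl-2* was not tested when a mean of 50 normalized counts was required. Of 59 fold changes of silencing genes under alternatives other than leaving out a library, 55 kept their direction. The other 4 changed sign: for *dcl-1* the log2 fold change was 0.028 with edgeR and 0.031 with DESeq2, against -0.028 with limma, and for *dcl-2* it was 0.053 with edgeR and 0.043 with DESeq2, against -0.055 with limma. With each library left out in turn, log2 fold changes ranged from -0.10 to 0.25 for *qde-2*, from -0.17 to 0.55 for *qde-3*, from -0.42 to 0.36 for *dcl-1*, from -0.63 to 0.52 for *dcl-2*, from -0.072 to 0.15 for *qip* and, without a change of sign, from 0.22 to 0.64 for *qde-1*. Over all genes, leaving out a library moved the number called from 556 to between 333 (without control replicate 2) and 1132 (without ΔCFIm replicate 2). The replicate block raised it to 890, with 0 silencing genes called and an adjusted p of 0.238 for *qde-1*. Deviations of libraries with the same replicate number correlated weakly (Pearson 0.137, Spearman 0.160, over 6949 genes that are not independent). No source says what a shared number stands for. Whether the libraries are paired is therefore not known, and the main fit took them as unpaired. Depth limits *dcl-2* and *sms-2*, with 11 to 26 and 0 to 2 reads per library.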
